A study of Drosophila melanogaster with 7 samples.

Results

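The genes described here are the autophagy and vacuolar sorting genes of the Drosophila midgut: every row of the deposited count table whose symbol begins with Atg or Vps and a digit, together with ref(2)P, Mitf and Lamp1. They number 49 of the 10902 genes in the table, with 19 Atg genes, 27 Vps genes and the 3 named additions. All 49 had enough counts to be tested, among 9076 genes tested in all. Choice by symbol leaves out partners that carry other names: Pi3K59F (Vps34), dor (Vps18), car (Vps33A), lt (Vps41) and scat (Vps54) are listed under those names and are not counted among the 49, and neither Atg8b nor Vps37A is analysed here.

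Autophagy encloses cytoplasm in a membrane that matures into an autophagosome and fuses with the lysosome, where the contents are degraded. A kinase complex around Atg1 starts the process, a lipid kinase complex and Atg9 vesicles build the membrane, and a pair of ubiquitin-like conjugation systems attach Atg8 to it. The Vps proteins, first named in yeast for sorting proteins to the vacuole, bend and cut endosomal membranes (ESCRT), tether them before fusion (HOPS and CORVET) or return cargo to the Golgi (retromer and GARP). Autophagy and endosomal sorting are known in the fly gut for roles in enterocyte turnover, barrier maintenance and stem cell proliferation. Transcript levels do not measure the flow of material through either route.

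RNA was taken from whole adult midguts freed of crop, Malpighian tubules and hindgut, and sequenced as 7 libraries. Every group carried esgts, a temperature-sensitive Gal4 system under escargot control, and every group was raised at 18 °C and kept as adults for 7 days at 29 °C, which switches the driver on. The control group (esgts> w1118) had 3 libraries. A further 2 carried the label Shn-RNAi (esgts> Shn-RNAi), where Gal4 drives RNA interference against the BMP cofactor schnurri. The last 2, called Shn-RNAi puc (esgts> Shn-RNAi,PucE69/+), added 1 mutant copy of the JNK phosphatase puckered. The driver is active in intestinal stem cells and their immediate daughters, whereas the RNA came from all midgut cells, so that fewer cells of a type and less RNA per cell cannot be told apart. The control cross used w1118, so that strain background and RNAi cannot be told apart in either comparison with control. Whether the libraries of a group are separate flies or pools is not stated in the labels. The p-values weigh a group difference only against the spread between these 7 libraries, estimated in 1 fit that shares information across groups and genes.

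Total counts ran from 11552527 to 18490676 per library, and 10048 to 10601 genes had a count. The 49 genes held 0.196% to 0.34% of all counts, and the lowest count of any of them in any library was 18. Transcripts of shn were not lower in the RNAi groups (42.5, 47.4 and 42.4 CPM in control, 68.6 and 54.1 CPM under the Shn-RNAi label, 66.5 and 69.7 CPM under the Shn-RNAi puc label), and the higher level under the Shn-RNAi puc label was called (log2 0.63, edgeR adjusted p = 0.031). The targeted gene thus does not check the labels, and directions are stated for groups as labelled. Transcripts of puc, at 72.3, 70.2 and 82.2 CPM in control, 93.5 and 101 CPM, and 86.5 and 88.3 CPM, were not called in any comparison and do not check the label of the added allele. Summed visceral muscle markers stood at 4379 to 4682 CPM in control, 3385 and 3087 CPM under the Shn-RNAi label, and 3020.3 and 2653 CPM under the Shn-RNAi puc label. Of these 14 genes, 4 and 8 were called lower, beside 3.56% and 6.25% of all genes, and Zasp52 was called higher in both groups. Summed intestinal progenitor markers stood at 140.2 to 185 CPM in control, 264 and 239.5 CPM, and 195 and 241 CPM. Most of that sum was peb (83.1 to 93.1 CPM in control, 160.2 and 145 CPM, and 116 and 142 CPM). The driver gene esg stood at 13.6 to 18.9 CPM in control, 19 and 14.5 CPM, and 14.6 and 20.1 CPM. Of the 12 genes, 9 and 8 were above 0 on the log2 scale, with peb and hdc called higher under the Shn-RNAi label and sc under the Shn-RNAi puc label. Summed enterocyte markers stood at 120695 to 151052 CPM in control, 83877 and 141114 CPM, and 92223 and 84397 CPM, and their 12 genes went both ways, with Mal-A1, Amy-p and nub called higher and Jon99Ciii and betaTry lower under the Shn-RNAi puc label. Summed Malpighian tubule markers, a tissue removed at dissection, stood at 219 to 242 CPM in control, 329.7 and 493 CPM, and 962 and 990.3 CPM, in the same order of groups as Atg4b and ref(2)P below. Under the Shn-RNAi puc label most of that sum was Fst (87.4 to 109.9 CPM in control, 135 and 354 CPM under the Shn-RNAi label, 737 and 845 CPM under the Shn-RNAi puc label), whereas Uro stood at 7.96 to 21.2 CPM in control, 42 and 28.3 CPM, and 25.9 and 11.6 CPM. Summed enteroendocrine markers stood at 304 to 324 CPM in control, 307 and 437 CPM, and 368 and 441 CPM, with CCHa1 called higher in both groups (3.02-fold and 4.49-fold) and NPF lower under the Shn-RNAi puc label. Summed hemocyte markers stood at 61.8 to 129.9 CPM in control, 95.5 and 68 CPM, and 92.8 and 118 CPM, with Hml called higher under the Shn-RNAi puc label (0.43 to 0.796 CPM in control, 0.785 and 0.44 CPM, and 3.44 and 4.8 CPM). Of the tracheal and fat body lists no gene was called in either comparison with control, and of the germline list 1 gene was tested, piwi, called higher under the Shn-RNAi label. The lowest total of any gene in the count table was 5, so a marker at 0 in all libraries could not be seen there. The tubule marker OatP58Dc, the fat body markers Fbp1 and Lsp2 and the germline markers vas and bam were not found in it. The part of these lists in the differences below was not tested.

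The genes spanned a wide range of levels in control midguts. On a scale of CPM per kilobase of the longest annotated transcript, Atg8a, the ubiquitin-like protein that coats the autophagosome, was highest at 262 ± 35.1 (mean ± SD, n = 3). Lamp1, a lysosomal membrane glycoprotein, followed at 247 ± 9.28, a difference smaller than the spread of Atg8a. The cargo receptor ref(2)P, the fly counterpart of p62, stood at 148 ± 5.9 per kilobase, below both. Atg3, the E2-like enzyme that passes Atg8 to lipid, reached 79 ± 6.36 per kilobase and the ESCRT-III subunit Vps20 reached 75.8 ± 5.72, again closer to each other than their spread. At the other end stood Vps13B at 1.26 ± 0.129, the E2-like enzyme Atg10 at 1.24 ± 0.308 and Vps13D at 1.14 ± 0.185 per kilobase, which did not differ beyond their spread. Per kilobase of the mean transcript length they stood at 2.1, 1.38 and 1.14, so the distance of Vps13B from the others depends on the length used. Atg8a, Lamp1 and ref(2)P together held 43.8% to 48.8% of the counts of the 49 genes in each library.

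**Figure D1:**
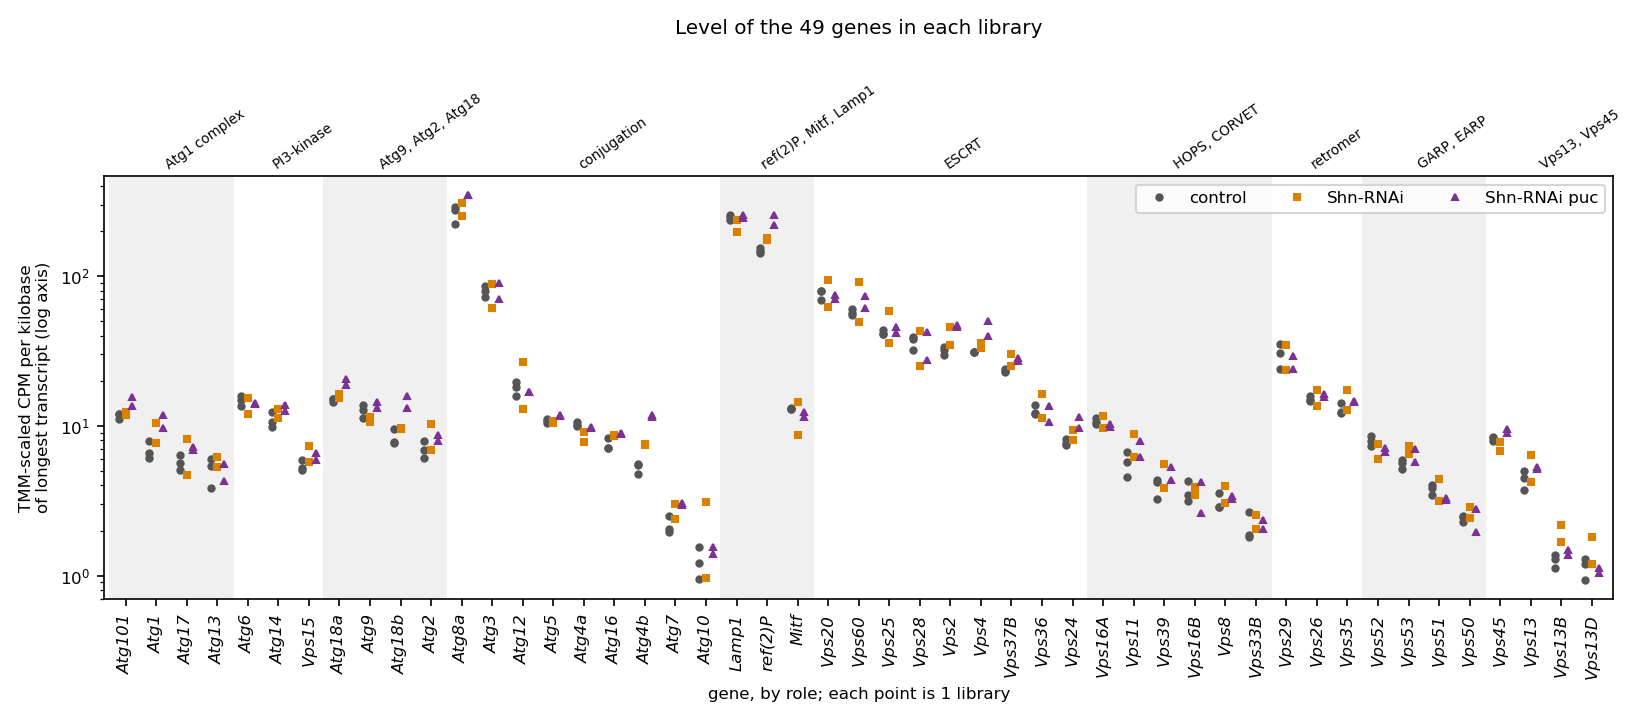
Level of each of the 49 genes by role, as TMM-scaled CPM per kilobase of the longest transcript on a log axis, with a point for each of the 7 libraries. In control the genes run from Atg8a, Lamp1 and ref(2)P at 148 to 262 down to Vps13B, Atg10 and Vps13D at 1.14 to 1.26.

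Few of these genes passed the test in any comparison. Under the Shn-RNAi puc label, 3 of the 49 rose against control and none fell: Atg4b 2.2-fold, Atg18b 1.72-fold and ref(2)P 1.61-fold. Under the Shn-RNAi label, 1 of the 49 rose, Atg4b at 1.43-fold, and none fell. A call was an adjusted p under 0.05 in edgeR's quasi-likelihood test over all 9076 genes. Of all genes tested, 8.76% were called higher and 6.25% lower in the comparison of Shn-RNAi puc with control, and 6.06% higher and 3.56% lower in that of Shn-RNAi with control. The share of the 49 genes called in either direction, 6.12% and 2.04%, was thus under the 15.0% and 9.62% over all genes. With the length trend described below taken out, the counts over all genes were 862 higher and 977 lower for Shn-RNAi puc (795 and 567 without that adjustment), and 612 higher and 635 lower for Shn-RNAi (550 and 323). At an unadjusted p under 0.05, 9 members were higher and 0 lower for Shn-RNAi puc, 18.4% beside 30.6% of all genes in either direction. For Shn-RNAi 2 were higher and 0 lower, 4.1% beside 26.8% of all genes. DESeq2 and limma-voom also called 0 lower, and for Shn-RNAi against control they called 0 higher, so neither called Atg4b there. Between the RNAi groups 0 of the 49 genes were called by edgeR, DESeq2 or limma-voom, against 0.0881% higher and 0.0551% lower of all genes, and 5 had an unadjusted edgeR p under 0.05 (4 higher in Shn-RNAi puc, 1 lower), 10.2% beside 6.4% of all genes.

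The members as a whole stood slightly above control. The median log2 difference from control was 0.15 under the Shn-RNAi label, where 37 of the 49 genes were above 0, beside a median of 0.03 and 52.4% above 0 over all genes tested. Under the Shn-RNAi puc label the median was 0.17 and 34 genes were above 0, beside 0.02 and 52.3% over all genes. With the trend on transcript length described below taken out, the members' medians were 0.03 and 0.04, beside -0.06 and -0.07 over all genes. In 21 of the 49 genes both Shn-RNAi puc libraries stood above all 3 control libraries, and in 4 both stood below, or 42.9% and 8.16%, beside 28.5% and 26.4% of all genes. Under the Shn-RNAi label the same counts were 10 and 2, or 20.4% and 4.08%, beside 22.1% and 21.2% of all genes. The Shn-RNAi puc libraries stood above both Shn-RNAi libraries in 14 genes and below both in 2, or 28.6% and 4.08%, beside 16.1% and 11.9% of all genes. Both comparisons with control share the same 3 control libraries and are not independent of each other.

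**Figure D2:**
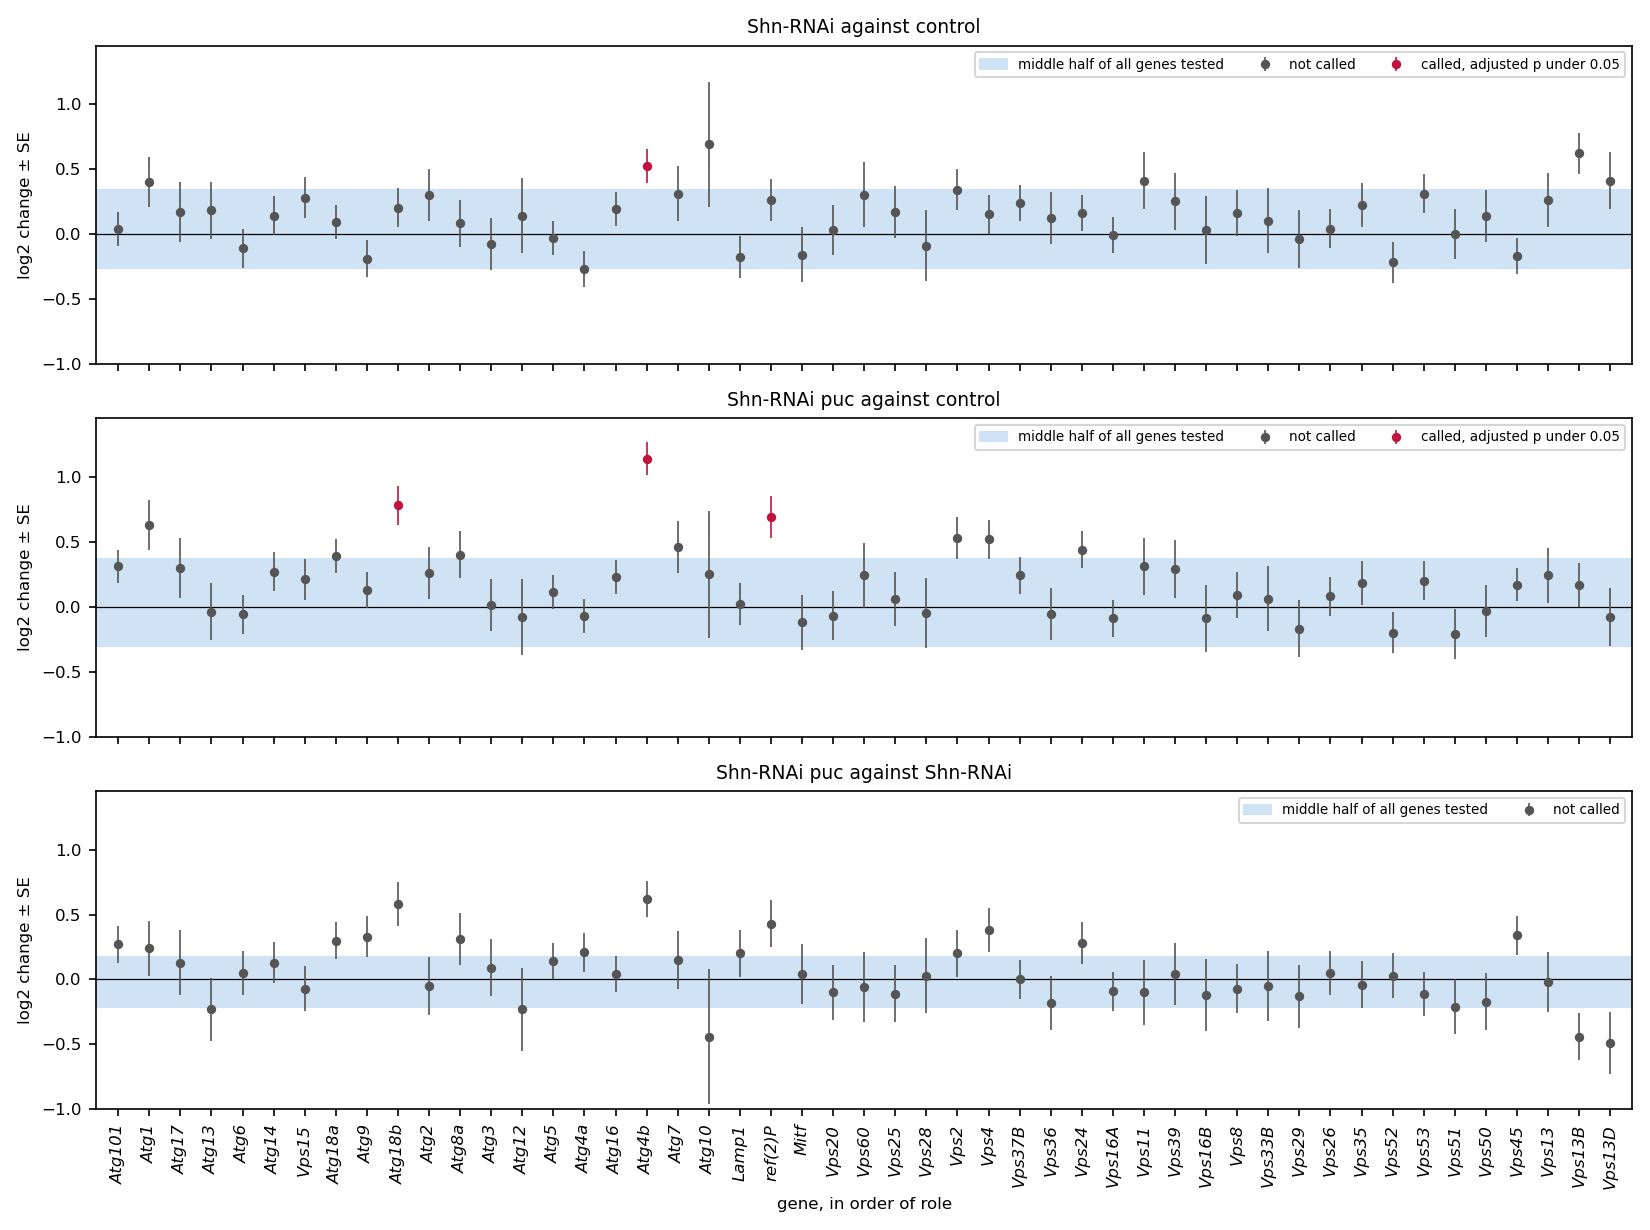
Log2 difference from control of each of the 49 genes, grouped by role, for the libraries under each RNAi label and for the RNAi groups against each other (points, with bars of 1 approximate SE from the edgeR fit; blue band, middle of all genes tested). Values against control run from -0.27 to 0.69 and from -0.21 to 1.14, and red points mark the called genes Atg4b, Atg18b and ref(2)P.

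Among the 4 genes of the initiation kinase complex, none was called in either comparison with control at an adjusted p under 0.05, and the median log2 difference was 0.17 under the Shn-RNAi label and 0.30 under the Shn-RNAi puc label. Atg1, the kinase itself, was at 27.1, 32.6 and 24.9 CPM in control, 43 and 31.3 CPM under the Shn-RNAi label, and 39.6 and 48 CPM under the Shn-RNAi puc label. Both Shn-RNAi puc libraries were above every control library, while 1 Shn-RNAi library lay within the control range. The log2 difference was 0.40 (edgeR adjusted p = 0.24) for Shn-RNAi and 0.63 (adjusted p = 0.064) for Shn-RNAi puc, neither of them past the threshold. Atg101, Atg17 and Atg13, the regulatory subunits, had log2 differences of 0.31, 0.30 and -0.04 under the Shn-RNAi puc label.

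The class III lipid kinase complexes, which make the phosphatidylinositol 3-phosphate that marks the growing membrane, had no called gene among Vps15, Atg6 and Atg14. Their log2 differences ran from -0.11 to 0.28 under the Shn-RNAi label and from -0.06 to 0.27 under the Shn-RNAi puc label. Vps15, the pseudokinase subunit, was at 22.1, 25.2 and 21.4 CPM in control, 31.2 and 24.3 CPM under the Shn-RNAi label, and 28 and 24.9 CPM under the Shn-RNAi puc label. Atg14, which directs the complex to autophagosome formation, was at 18.4, 23 and 19.9 CPM, 21 and 24.1 CPM, and 23.6 and 25.7 CPM. For Vps15 the groups overlapped, and for Atg14 only the Shn-RNAi puc libraries cleared the control range. The catalytic subunit, listed as Pi3K59F and outside the 49, was at 32.6, 29.8 and 31.9 CPM, 32.2 and 29.3 CPM, and 36.4 and 31.1 CPM, with all groups overlapping.

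Of the 4 genes that supply membrane lipid or bind the marked membrane, Atg18b rose under the Shn-RNAi puc label. It encodes a PROPPIN, a propeller protein that binds phosphatidylinositol 3-phosphate, and lies at 2L:21212322-21220572 on the minus strand (BDGP6.54). Its level was 18.8, 23.1 and 19.1 CPM in control, 23.6 and 23.2 CPM under the Shn-RNAi label, and 38.3 and 31.9 CPM under the Shn-RNAi puc label. The Shn-RNAi puc libraries were the highest of the 7, and the Shn-RNAi libraries lay just above the top control library. The log2 difference from control was 0.78 (SE 0.15, edgeR adjusted p = 0.015) for Shn-RNAi puc and 0.20 (adjusted p = 0.46) for Shn-RNAi, and the RNAi groups differed by 0.58 (SE 0.17, adjusted p = 0.45). The call was lost without control library 1 (adjusted p = 0.077), control library 3 (0.055), Shn-RNAi puc library 1 (0.092) or Shn-RNAi puc library 2 (0.061), with log2 differences of 0.65 to 0.91.

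Its paralogue Atg18a, known in the fly as required for autophagy, had a log2 difference of 0.39 (edgeR adjusted p = 0.078) under the Shn-RNAi puc label. The ratio of Atg18b to Atg18a, both per kilobase of transcript, was 0.532, 0.628 and 0.52 in control, 0.592 and 0.62 under the Shn-RNAi label, and 0.77 and 0.697 under the Shn-RNAi puc label. Only the Shn-RNAi puc libraries lay outside the control range of this ratio. Atg2, a lipid transfer protein, was at 43.1, 49.8 and 38.3 CPM in control, 64.5 and 43.3 CPM under the Shn-RNAi label, and 49.9 and 54.6 CPM under the Shn-RNAi puc label, and was not called. Atg9, the membrane protein of the vesicles that seed the autophagosome, had log2 differences of -0.19 and 0.13 from control and was not called.

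In the ubiquitin-like conjugation group, 1 of 9 genes rose in each comparison with control, and it was Atg4b both times. Atg4b encodes a cysteine protease that trims Atg8 before its attachment to lipid and removes it again afterwards, and lies at 3R:15353720-15356924 on the minus strand. Its level was 14.8, 14.6 and 12.7 CPM in control, 19.9 and 20.3 CPM under the Shn-RNAi label, and 30.3 and 31.3 CPM under the Shn-RNAi puc label. The 3 groups did not overlap, a pattern whose share over all genes was not counted. The Atg4b libraries within each group lay close together. The log2 difference from control was 1.14 (SE 0.13, edgeR adjusted p = 0.0025) for Shn-RNAi puc, a call kept in all 7 refits that each left out 1 library, with a highest adjusted p of 0.037. For Shn-RNAi it was 0.52 (SE 0.13, adjusted p = 0.046).

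The Shn-RNAi call on Atg4b was at the edge of the threshold, and DESeq2 and limma-voom did not make it. It was lost in each of the 7 refits, with adjusted p = 0.14, 0.1 and 0.16 without control libraries 1, 2 and 3, 0.064 and 0.079 without Shn-RNAi libraries 1 and 2, and 0.075 and 0.077 without Shn-RNAi puc libraries 1 and 2, while the log2 difference stayed between 0.46 and 0.57. Between the RNAi groups Atg4b differed by 0.62 (SE 0.14, edgeR adjusted p = 0.26, 95% interval 0.29 to 0.95), which was not called. Exons of Atg4b share 207 bases with a gene on the opposite strand, listed as CG5038. CG5038 was at 1.5, 1.94 and 1.67 CPM in control, 2.13 and 2.2 CPM under the Shn-RNAi label, and 3.64 and 4.1 CPM under the Shn-RNAi puc label, in the same order of groups as Atg4b. Whether counting used strand is not stated in these sources, and the part of shared reads was not tested.

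Atg4a, the other Atg4 protease of the fly, was at 43.3, 41.2 and 40.4 CPM in control, 37 and 31.9 CPM under the Shn-RNAi label, and 40 and 39.6 CPM under the Shn-RNAi puc label. Both RNAi groups lay below the control range, the Shn-RNAi puc group by little, and neither difference was called (log2 -0.27, edgeR adjusted p = 0.25, and -0.07, adjusted p = 0.79). The ratio of Atg4b to Atg4a, both per kilobase, was 0.522, 0.54 and 0.48 in control, 0.822 and 0.97 under the Shn-RNAi label, and 1.16 and 1.21 under the Shn-RNAi puc label. The ratio separated the 3 groups without overlap. Per kilobase of the longest transcript, Atg4a was the more abundant in control and Atg4b under the Shn-RNAi puc label. The order under the Shn-RNAi puc label depends on the length used. Transcripts of Atg4a are 4075 bases at the longest and 3075.5 on average, and Atg4b has 2665 for both. Exons of Atg4a overlap those of a gene on the opposite strand as well, CG4629, over 2098 bases.

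**Figure D3:**
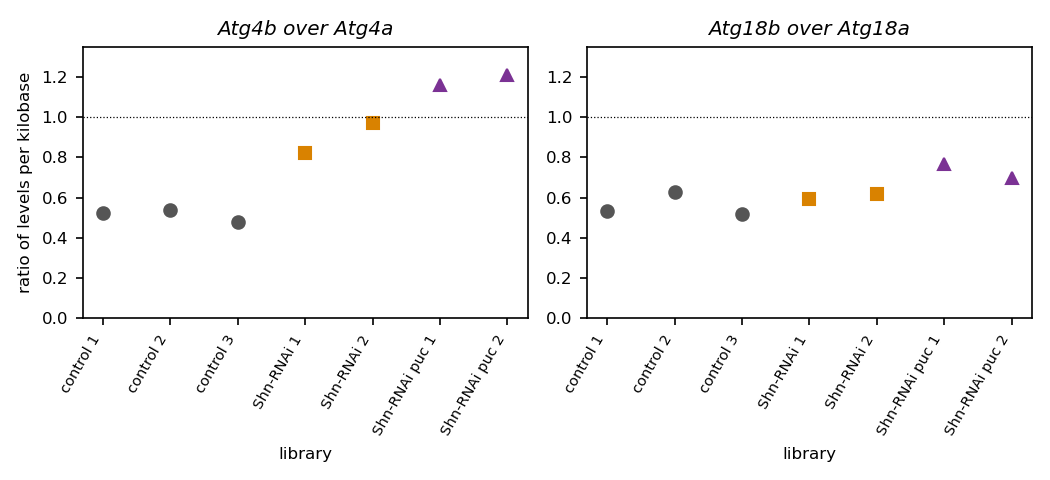
Ratio of Atg4b to Atg4a and of Atg18b to Atg18a in each of the 7 libraries, each gene as CPM per kilobase of its longest transcript. The Atg4 ratio runs from 0.48 to 0.54 in control and reaches 1.16 and 1.21 under the Shn-RNAi puc label, and the Atg18 ratio from 0.52 to 0.628 and reaches 0.77 and 0.697.

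Atg8a, the substrate of both proteases, was at 333, 270.4 and 352 CPM in control, 303 and 371 CPM under the Shn-RNAi label, and 419 and 419 CPM under the Shn-RNAi puc label. The Shn-RNAi puc libraries were the highest, but the control libraries spread widely and the difference was not called (log2 0.40, edgeR adjusted p = 0.19, 95% interval -0.03 to 0.82). Atg10, the E2-like enzyme that passes Atg12 to Atg5, had the widest spread of the 49 genes, with 2.36, 1.83 and 1.43 CPM in control, 1.46 and 4.7 CPM under the Shn-RNAi label, and 2.34 and 2.12 CPM under the Shn-RNAi puc label. The Shn-RNAi libraries of Atg10 lay near the bottom and at the top of all 7, and its log2 difference of 0.69 was not called (adjusted p = 0.41). Atg5, which forms a conjugate with Atg12, was the steadiest gene, at 14.9 to 16.7 CPM over the 7 libraries, a 1.12-fold range. Atg3, Atg7, Atg12 and Atg16 had log2 differences of -0.08 to 0.31 for Shn-RNAi and -0.08 to 0.46 for Shn-RNAi puc, none called.

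The cargo receptor ref(2)P rose under the Shn-RNAi puc label. Its protein binds ubiquitinated cargo and Atg8, and is itself degraded by autophagy, and the gene lies at 2L:19542468-19545548 on the plus strand. Its level was 370.3, 351 and 343 CPM in control, 418 and 431 CPM under the Shn-RNAi label, and 614 and 526 CPM under the Shn-RNAi puc label. As for Atg4b, the 3 groups did not overlap, with control lowest and Shn-RNAi puc highest. The log2 difference from control was 0.69 (SE 0.16, edgeR adjusted p = 0.027) for Shn-RNAi puc, and 0.26 (SE 0.16, adjusted p = 0.35) for Shn-RNAi, and the RNAi groups differed by 0.43 (SE 0.18, adjusted p = 0.77). The call was lost without control library 1, 2 or 3 (adjusted p = 0.12, 0.08 and 0.11) and without Shn-RNAi puc library 1 or 2 (0.13 and 0.088), with log2 differences of 0.57 to 0.80. Exons of ref(2)P share 173 bases with CG10337 on the opposite strand, which was at 12.5, 13.4 and 14.4 CPM in control, 13.2 and 16 CPM, and 18.7 and 15.8 CPM.

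Mitf, the fly member of the family of transcription factors that drives lysosomal and autophagy genes, was at 53, 52 and 51.9 CPM in control, 58.4 and 35.1 CPM under the Shn-RNAi label, and 46.3 and 49.9 CPM under the Shn-RNAi puc label. The control libraries agreed closely while the Shn-RNAi libraries lay on both sides of them. The log2 difference was -0.16 for Shn-RNAi (edgeR adjusted p = 0.68) and -0.12 for Shn-RNAi puc (adjusted p = 0.75). Mitf was called lower in the comparison of Shn-RNAi with control only in the refit without Shn-RNAi library 1 (log2 -0.57), which left 1 library in that group. Lamp1 was at 402, 395 and 374 CPM in control, 377 and 312 CPM under the Shn-RNAi label, and 386 and 407 CPM under the Shn-RNAi puc label, and each RNAi group overlapped control. Its log2 difference was 0.02 for Shn-RNAi puc with a 95% interval of -0.35 to 0.40, or 0.782-fold to 1.32-fold.

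**Figure D4:**
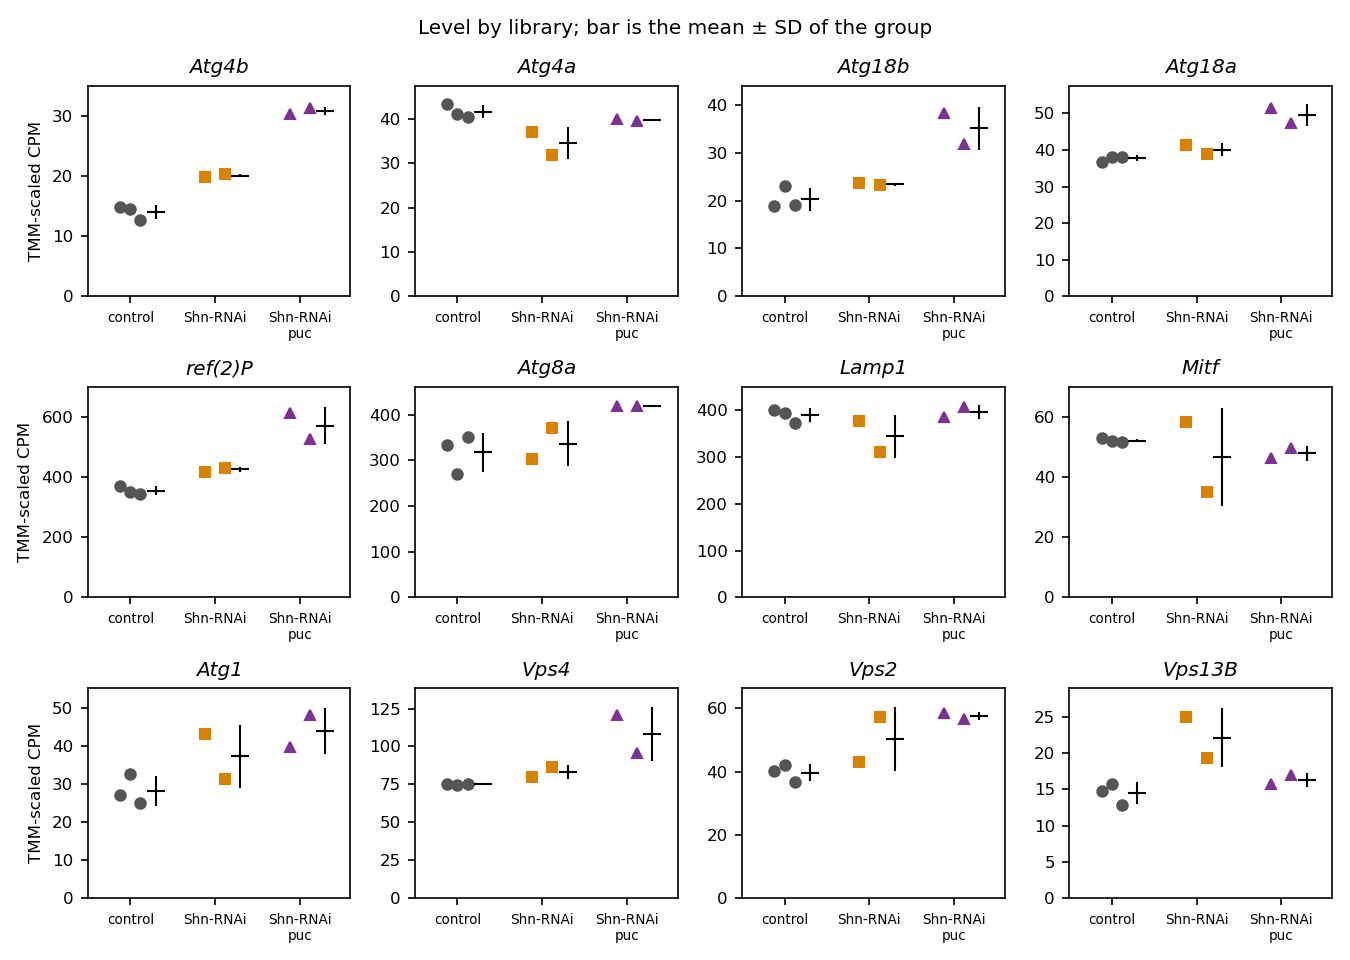
Level of selected genes in each of the 7 libraries in TMM-scaled CPM, with 1 panel per gene, points for libraries and a bar at each group's mean ± SD. Atg4b and ref(2)P separate all 3 groups, Atg18b sets the libraries under the Shn-RNAi puc label apart at 38.3 and 31.9 CPM, and Mitf and Lamp1 overlap or lie close.

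The 9 ESCRT genes, which sort ubiquitinated membrane proteins into endosomes and help to seal membranes, had no called member. Their median log2 difference was 0.16 for Shn-RNAi and 0.24 for Shn-RNAi puc. In 5 of the 9 both Shn-RNAi puc libraries stood above control, as they did in 28.5% of all genes. Vps2, an ESCRT-III subunit, was at 40.3, 42.1 and 36.8 CPM in control, 43 and 57.3 CPM under the Shn-RNAi label, and 58.4 and 56.7 CPM under the Shn-RNAi puc label. Both RNAi groups cleared the control range, with 1 Shn-RNAi library just above it, and the log2 differences were 0.34 (edgeR adjusted p = 0.23) and 0.53 (adjusted p = 0.062). Vps4, the ATPase that takes ESCRT-III filaments apart, was at 75.1, 74.9 and 75.5 CPM in control, 79.7 and 86.7 CPM, and 120.4 and 95.4 CPM. Its libraries fell into the order control, Shn-RNAi, Shn-RNAi puc without overlap, and its log2 difference of 0.52 for Shn-RNAi puc missed the threshold (adjusted p = 0.055).

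Vps24, another ESCRT-III subunit, had a log2 difference of 0.44 for Shn-RNAi puc (edgeR adjusted p = 0.076). Its exons overlap those of MP1, a protease gene on the opposite strand, over 1525 bases, and MP1 rose from 2.36, 2.6 and 2.47 CPM in control to 7.79 and 12.5 CPM under the Shn-RNAi label and 12.1 and 12.9 CPM under the Shn-RNAi puc label. The rise of MP1 was 2.02 and 2.33 on the log2 scale (edgeR adjusted p = 0.0028 and 0.0015). The part of shared reads in the Vps24 value was not tested. The ESCRT-I subunits Vps28 and Vps37B, the ESCRT-II subunits Vps25 and Vps36, and Vps20 and Vps60 had log2 differences of -0.07 to 0.24 for Shn-RNAi puc. DESeq2 called Vps2 and Vps4 higher in Shn-RNAi puc in addition to Atg4b, Atg18b and ref(2)P. A fit of only the Shn-RNAi puc and control libraries called 8 genes higher, adding Atg18a, Vps24, Vps2, Atg1 and Vps4 to the 3. That fit also called more of all genes, higher and lower, than the reported one, with counts given in the section on processing. For DESeq2 the count over all genes in this comparison is not given.

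The tethering complexes HOPS and CORVET, with the related Vps33B and Vps16B pair, counted 6 genes and no call. Their log2 differences ran from -0.01 to 0.41 for Shn-RNAi and from -0.09 to 0.31 for Shn-RNAi puc. Vps11, a core subunit of both complexes, was at 16.3, 19.1 and 12.9 CPM in control, 25.1 and 17.7 CPM under the Shn-RNAi label, and 17.5 and 22.5 CPM under the Shn-RNAi puc label, and its groups overlapped. Vps16A, a further core subunit, had a 1.2-fold range over the 7 libraries, the next smallest after Atg5. None of the 6 genes had groups that separated from control without overlap. Of all genes, 22.1% separated above and 21.2% below for Shn-RNAi, and 28.5% above and 26.4% below for Shn-RNAi puc.

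Of the 3 retromer genes, which return receptors from endosomes, Vps35 was at 41.7, 47.6 and 41 CPM in control, 58 and 43.1 CPM under the Shn-RNAi label, and 48.7 and 49.7 CPM under the Shn-RNAi puc label. The Shn-RNAi puc libraries lay just above control and the Shn-RNAi libraries overlapped it, and the log2 differences of 0.22 and 0.18 were not called. Its exons share 70 bases with Swim on the opposite strand, whose rise is given below. Vps26 and Vps29 had log2 differences of 0.04 and -0.04 for Shn-RNAi and 0.08 and -0.17 for Shn-RNAi puc. Among the 4 tethering genes of GARP and EARP, which serve transport to the Golgi and endosome recycling, the median log2 difference for Shn-RNAi puc was -0.12, and none was called. Vps51 was at 9.67, 8.36 and 9.24 CPM in control, 7.62 and 10.6 CPM, and 7.93 and 7.77 CPM, so that the Shn-RNAi puc libraries lay below control. Vps53 was at 15.2, 17.4 and 16.6 CPM in control, 19.1 and 21.8 CPM, and 20.8 and 17 CPM, with the Shn-RNAi libraries above control and the Shn-RNAi puc libraries overlapping it.

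Vps13B, a member of the Vps13 family of bridge-like lipid transfer proteins, had the highest level under the Shn-RNAi label. It was at 14.8, 15.7 and 12.8 CPM in control, 25 and 19.3 CPM under the Shn-RNAi label, and 15.7 and 17 CPM under the Shn-RNAi puc label. Only the Shn-RNAi libraries cleared the control range. The log2 difference for Shn-RNAi was 0.62 (SE 0.16, edgeR adjusted p = 0.055) and was not called; it was 0.16 with the length trend taken out and 0.79 without Shn-RNAi library 2 (adjusted p = 0.044). The difference between the RNAi groups was -0.44 (adjusted p = 0.76). Vps13 was at 47.2, 52.2 and 39.2 CPM in control, 66.9 and 44 CPM, and 55.3 and 54 CPM. For Vps13 the Shn-RNAi libraries overlapped control and the Shn-RNAi puc libraries lay above it, with no call. Vps45, which acts in vesicle fusion at endosomes, had log2 differences of -0.17 and 0.17 from control, and its difference between the RNAi groups of 0.34 had an unadjusted p of 0.049 and an adjusted p of 0.77.

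The spread between the Shn-RNAi libraries limited these comparisons, and it followed transcript length. The median absolute log2 difference between the libraries of a group over the 49 genes was 0.36 for Shn-RNAi, 0.12 for Shn-RNAi puc and 0.10 to 0.20 for pairs of control libraries. Across the 49 genes the log2 ratio of Shn-RNAi library 1 to library 2 followed log2 transcript length with Pearson r = 0.76 and Spearman rho = 0.83, beside 0.49 and 0.57 over the 8982 genes with a length. These are correlations across genes of the same 2 libraries, and genes are not independent replicates. Short members were higher in library 2, led by Atg12 at -1.03 and Vps60 at -0.89, and long ones in library 1, led by Atg17 at 0.78, Mitf at 0.73 and Vps13D at 0.61. The lowest ratio, -1.69, was that of Atg10, which has a transcript of 1516 bases and the lowest level in CPM of the 49. The 3 called genes lay near 0 on this ratio, with Atg4b at -0.03, Atg18b at 0.02 and ref(2)P at -0.04.

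**Figure D5:**
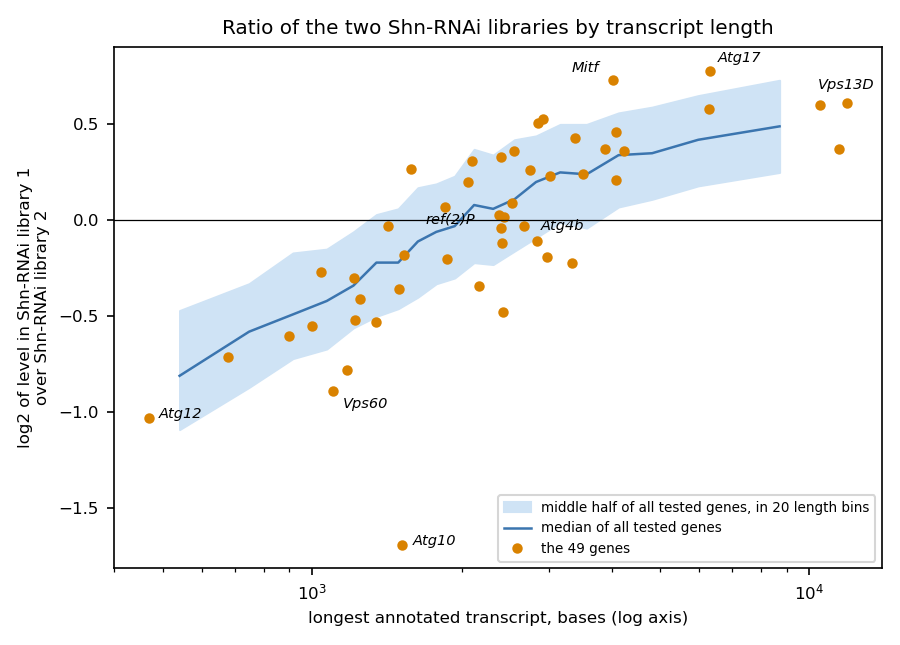
Log2 ratio of Shn-RNAi library 1 to Shn-RNAi library 2 against the longest annotated transcript in bases on a log axis, with the 49 genes as points and the median and quartiles of all tested genes in length bins as a line and band. The points rise with length from Atg12 at -1.03 to Atg17 at 0.78, with Atg10 lowest at -1.69, and Atg4b, Atg18b and ref(2)P lie near 0.

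A trend was also present in some other libraries, none with an offset as large as that of Shn-RNAi library 1. With genes put into 4 length classes, the log2 offset of the longest class against the shortest was -0.32, 0.00 and -0.41 in control. It was 0.62 and -0.27 under the Shn-RNAi label, and 0.08 and 0.33 under the Shn-RNAi puc label. The control libraries thus lay at or below 0 and the Shn-RNAi puc libraries above it. Against control, the median log2 difference over all genes ran from -0.24 in the shortest class to 0.18 in the longest for Shn-RNAi puc. For Shn-RNAi it ran from -0.14 to 0.27. Of the 49 genes, 10 lay in the shortest class and 12 in the longest. With the trend taken out, Atg4b, Atg18b and ref(2)P were still called higher in Shn-RNAi puc (log2 0.96, 0.63 and 0.53), and Vps2 and Atg8a were called with them. In Shn-RNAi the same adjustment left Atg4b called higher (log2 0.41, edgeR adjusted p = 0.05, on the called side before rounding) and called Atg4a lower.

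The differences that the data still allow were bounded for most members. The 95% interval of the log2 difference lay within a 2-fold change either way in 48 of 49 genes for Shn-RNAi, all but Atg10. For Shn-RNAi puc it did so in 44, all but Atg4b, Atg18b, ref(2)P, Atg1 and Atg10. Between the RNAi groups it did so in 47, all but Atg10 and Vps13D. Within a 1.5-fold change lay 23, 22 and 16 of the 49 genes.

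Lists of partner genes without an Atg or Vps name were described beside the 49. The counts of called genes in each list stand beside the shares over all genes tested. These were 6.06% higher and 3.56% lower for Shn-RNAi, and 8.76% higher and 6.25% lower for Shn-RNAi puc. Of 20 ESCRT, HOPS and other endosomal partners, 1 rose under the Shn-RNAi label (median log2 0.21) and 4 under the Shn-RNAi puc label (median 0.41). None fell in edgeR. At an unadjusted edgeR p under 0.05, 3 and 11 were higher and 0 lower, where 26.8% and 30.6% of all genes passed in either direction. ALiX, an ESCRT-associated adaptor, was at 97.3, 106 and 91.4 CPM in control, 169.5 and 220.4 CPM under the Shn-RNAi label, and 234 and 212 CPM under the Shn-RNAi puc label. Both RNAi groups lay above control, with log2 differences of 0.99 (edgeR adjusted p = 0.012) and 1.18 (adjusted p = 0.0054). The first was not called without control library 1 (0.064) or 3 (0.051), nor the second without Shn-RNAi puc library 1 (0.055) or 2 (0.054). Hrs and Stam, the ESCRT-0 pair that first binds ubiquitinated cargo, and Snx3, a retromer sorting nexin, rose under the Shn-RNAi puc label by log2 0.67 (adjusted p = 0.03), 0.61 (0.034) and 0.61 (0.02). Hrs was at 53.1, 55.1 and 49.4 CPM in control, 60 and 69.1 CPM, and 94.5 and 72.9 CPM. Stam was at 70.9, 71.9 and 69.9 CPM, 85.3 and 77.2 CPM, and 121 and 95.4 CPM, and Snx3 at 29.1, 28.7 and 28.3 CPM, 35.2 and 40.4 CPM, and 43.6 and 44.1 CPM. In all 3 the groups were in the order control, Shn-RNAi, Shn-RNAi puc without overlap. How many of all genes had this order was not counted, and these 3 were named because they were called. Each of these 3 calls was lost without any one of the 3 control libraries or either Shn-RNAi puc library, with adjusted p of 0.063 to 0.19.

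Among 11 genes of autophagosome fusion and selective autophagy, bchs, a large adaptor of the BEACH family, rose in both groups. It was at 12.6, 15 and 10.3 CPM in control, 25.4 and 19 CPM under the Shn-RNAi label (log2 0.81, edgeR adjusted p = 0.041), and 24.4 and 27.1 CPM under the Shn-RNAi puc label (log2 1.02, adjusted p = 0.015). All RNAi libraries lay above control, but the Shn-RNAi call was lost without any single library except control library 2 (adjusted p of 0.05 to 0.14), and the Shn-RNAi puc call without control library 1 (0.064) or Shn-RNAi puc library 1 (0.072) or 2 (0.14). Of 25 nutrient-sensing regulators, 1 rose in both groups: Thor, the 4E-BP translation repressor, at 206, 180.4 and 207 CPM in control, 654 and 1287 CPM (log2 2.29, adjusted p = 0.0039), and 971 and 719 CPM (log2 2.09, adjusted p = 0.0046). The Thor call for Shn-RNAi puc was lost without Shn-RNAi puc library 1 (0.055).

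Of 24 tested lysosomal hydrolases and membrane proteins, 2 rose and none fell under the Shn-RNAi label by edgeR, where 4 were lower at an unadjusted p under 0.05. In those labelled Shn-RNAi puc 3 rose and 2 fell. Npc1a, a sterol exporter of late endosomes, was at 33.6, 36.9 and 29.5 CPM in control, 68.6 and 68.5 CPM (log2 1.04, edgeR adjusted p = 0.0084), and 90.4 and 72.8 CPM (log2 1.29, adjusted p = 0.0032). Swim, a secreted cathepsin-like protein listed with them, was at 93, 91.2 and 94.4 CPM, 169 and 328 CPM (log2 1.42, adjusted p = 0.016), and 334 and 404 CPM (log2 1.99, adjusted p = 0.0038). Neither gene had an RNAi library within the control range. The Shn-RNAi call on Swim was lost without control library 1 (0.066) or 3 (0.053) or Shn-RNAi puc library 1 (0.052) or 2 (0.051), and the Shn-RNAi puc call without Shn-RNAi puc library 2 (0.06).

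GILT1, a thiol reductase homologue, rose by log2 0.75 (edgeR adjusted p = 0.041) under the Shn-RNAi puc label, and the hexosaminidase genes Hexo1 and Hexo2 fell there (log2 -0.66, adjusted p = 0.041, and -0.77, adjusted p = 0.038). Hexo1 was at 142, 141 and 159 CPM in control, 116 and 101 CPM under the Shn-RNAi label, and 105 and 80.8 CPM under the Shn-RNAi puc label. Hexo2 was at 14.8, 14.6 and 15.8 CPM, 8.69 and 12.8 CPM, and 9.55 and 8.12 CPM, and GILT1 at 6.8, 9.79 and 9.32 CPM, 10.1 and 12.5 CPM, and 15 and 14.1 CPM. In each of the 3 both RNAi groups lay outside the control range. These 3 calls were each lost without any one of the control or Shn-RNAi puc libraries (adjusted p of 0.059 to 0.27). Of 21 tested V-ATPase subunits, the pump that acidifies the lysosome, VhaAC39-2 fell in both comparisons. It was at 12, 8.63 and 13.9 CPM in control, 2.63 and 3.96 CPM (log2 -1.81, adjusted p = 0.0099), and 3.64 and 2.97 CPM (log2 -1.80, adjusted p = 0.0081), and the Shn-RNAi puc call was lost without Shn-RNAi puc library 1 (0.063) or 2 (0.11). The V-ATPase list had a median log2 difference of -0.46 for Shn-RNAi and -0.17 for Shn-RNAi puc, and 8 and 4 of its 21 genes were lower at an unadjusted p under 0.05, where 26.8% and 30.6% of all genes passed in either direction. No gene of the partner lists was called between the RNAi groups by edgeR, where 0 to 2 genes per list were higher under the Shn-RNAi puc label at an unadjusted p under 0.05 and 0 were lower.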

How the data were processed

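RNA of dissected midguts was measured in 7 libraries. The authors deposited unscaled, whole-number read counts by gene symbol, with totals of 11552527 to 18490676. Salmon 1.0.0, DESeq2 and the build BDGP6 are named per the submitters' processing notes; their roles, any rounding of estimated counts and strand use are not given in the sources used here. Column headings give a group and a number without a sample name, so each column was assigned to its group alone.

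The Ensembl 115 annotation (BDGP6.54) gave positions and lengths for 10874 of the 10902 symbols, 830 through an older name, and for all 49 genes. Tests used edgeR 4.0.16 (R 4.3.3): filterByExpr left 9076 genes and took out 1826, libraries were scaled with TMM, and CPM are TMM-scaled. One quasi-likelihood model held all 7 libraries (4 residual degrees of freedom, common biological coefficient of variation 21.6%), and 3 contrasts were tested two-sided with Benjamini-Hochberg adjustment over the 9076 genes. A fold change, on the log2 scale, is from that fit. SEs are the log2 difference over the root of F and are approximate, as are the 95% intervals. Levels between genes were set side by side per kilobase of the longest transcript, except for shares of counts and the lowest CPM, that of Atg10. The model was also run on simulated data with known changes. Those data varied less between libraries than the real ones and had no length trend. The run therefore does not measure the error rate on the real data.

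The genes, roles and partner lists were chosen with earlier results of these data known. By rule, values in every library are given for the fixed genes ref(2)P, Mitf, Lamp1, Atg8a, Atg1 and Vps34 (Atg8b, also fixed, is not analysed here), for called genes among the 49 and for the gene with the largest difference in each role in each comparison with control; up to 4 called genes per partner list are named. Other genes given with values were chosen after their values were seen. Exons of 18 of the 49 genes overlap a coding gene on the opposite strand. Alternatives were DESeq2 1.42.0, limma-voom (limma 3.58.1), RLE and upper-quartile scaling, a low-value filter of 1 CPM in 2 libraries or none, fits of the 2 groups compared, a transcript-length trend taken out (spline with 4 degrees of freedom), and each library left out. A block on the column number and its crossed form were added after seeing the data. Counts of replicate libraries differed by more than sampling noise. Sequences of these genes are not shown.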

Additional observations from a re-analysis of the deposited data

How the results depend on the processing

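Counts below are genes called at an adjusted p under 0.05, beside the values reported; causes were not tested. In the comparison of Shn-RNAi with control, the 1 higher member (Atg4b) became 0 with DESeq2, limma-voom, upper-quartile scaling, no low-count filter and a fit of 2 groups.

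DESeq2 gave 595 genes lower in all for Shn-RNAi (reported 323), 2 higher in the fusion list, 1 lower nutrient regulator and 5 lower V-ATPase subunits; for Shn-RNAi puc it gave 5 higher members, 2 higher in the fusion list and 4 lower V-ATPase subunits; between the RNAi groups it gave 38 higher and 46 lower in all (reported 8 and 5). Limma-voom gave 2 and upper-quartile scaling 3 lower V-ATPase subunits for Shn-RNAi, and the latter 1 lower nutrient regulator for Shn-RNAi puc. With no filter the fusion list had 0 higher for Shn-RNAi and the lysosomal list 1 lower for Shn-RNAi puc. Fits of 2 groups gave 0 higher in the fusion list for Shn-RNAi; for Shn-RNAi puc they gave 1194 higher and 1012 lower in all (reported 795 and 567), 8 higher members, 10 higher endosomal partners, 3 higher and 1 lower in the fusion list and 1 lower nutrient regulator.

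With the transcript-length trend taken out, Shn-RNAi had 635 lower in all, 1 lower member, a member median of 0.03, 2 higher endosomal partners, 1 lower in the fusion list, 2 higher and 1 lower nutrient regulators, 1 lower lysosomal gene and 3 lower V-ATPase subunits. Shn-RNAi puc had 977 lower in all, 5 higher members, a median of 0.04, 7 higher endosomal partners, 2 higher and 1 lower in the fusion list, 3 higher and 1 lower nutrient regulators and 2 lower V-ATPase subunits, and between the RNAi groups 18 were higher and 10 lower in all.

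The column headings share replicate numbers across groups, but the titles do not, and deviations of same-numbered libraries correlated at -0.133 to 0.204, so the numbers were not taken to pair libraries. A replicate block on these numbers, added after seeing the data, gave 230 higher and 91 lower in all for Shn-RNAi, with 0 higher members, 0 endosomal partners, 0 in the fusion list and 0 higher lysosomal genes. For Shn-RNAi puc the block gave 309 higher and 159 lower in all, 1 higher member (Atg4b), a member median of 0.11, 1 endosomal partner, 0 in the fusion list and 0 lower lysosomal genes. The crossed pairing gave 11 lower in all between the RNAi groups.

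Leaving out each library in turn gave, for Shn-RNAi, 221 to 534 higher and 64 to 301 lower in all, 0 to 1 members higher and 0 to 1 lower, 0 to 1 endosomal partners, 0 to 1 in the fusion list, 1 to 2 nutrient regulators, 1 to 3 lysosomal genes higher and 1 to 2 V-ATPase subunits lower. For Shn-RNAi puc it gave 139 to 1033 higher and 33 to 839 lower in all, 1 to 8 members higher, a member median of 0.11 to 0.20, 0 to 8 endosomal partners, 0 to 2 higher and 0 to 1 lower in the fusion list, 0 to 1 nutrient regulators in each direction, 1 to 4 lysosomal genes higher and 0 to 2 lower, and 0 to 1 V-ATPase subunits lower. Between the RNAi groups it gave 4 to 7 higher and 0 to 9 lower in all and a member median of 0.02 to 0.12. A refit that left 1 library in a group assumed that it varied like the others. No reported value changed sign past a threshold. For single named genes, 94 values lost and 12 gained a call over these settings, and 1413 stayed on their side of the threshold. Those 1413 include uncalled values that changed sign. For Shn-RNAi against control, Vps13 ran from -0.20 to 0.54 and Vps51 from -0.25 to 0.23 on the log2 scale.

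With 2 libraries in each RNAi group, the intervals bounded changes to 2-fold for most members and to 1.5-fold for 23, 22 and 16 of 49 in the 3 comparisons.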
